A study of Mus musculus with 6 samples.

Results

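The genes described here are the ligands and receptors of the Wnt and Notch pathways together with their secreted inhibitors and the Hes repressors, measured in the hippocampus of Glud1 transgenic (Tg) mice and wild type (wt) mice. Members were chosen by gene name alone, under a rule set with earlier results of these data known. They were the genes named Wnt, Fzd, Sfrp, Dkk, Notch, Dll, Jag or Hes with a family number that had at least 1 probeset annotated to that gene and to no other. The rule gave 54 of the 18193 genes with such a probeset on the Affymetrix mouse genome array. A probeset is a group of short probes whose brightness is summarised as 1 value, and each gene is described at its brightest probeset by mean signal.

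The 3 Tg mice carried Glud1, the gene of the mitochondrial enzyme glutamate dehydrogenase, under the promoter of neuron-specific enolase (Nse), which drives it in neurons. The 3 wt mice had the same C57BL/6 background and no transgene. All 6 were untreated males aged 9 months, and each array held RNA from the homogenised hippocampus of 1 mouse, with neurons, glia and vessels together. In such a mixture, fewer cells of a type and less RNA per cell cannot be told apart. Whether the Tg line rests on 1 founder is not given in the sources used here.

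Wnt proteins are secreted, lipid-modified ligands that bind Frizzled receptors on nearby cells. Their signal either stabilises beta-catenin, which then acts with TCF and LEF factors in the nucleus, or passes through polarity and calcium routes, and Sfrp and Dkk proteins hold it back outside the cell. Notch receptors are cleaved after contact with Delta or Jagged ligands on a neighbouring cell. The released fragment joins the DNA-binding protein RBPJ and turns on genes such as Hes1 and Hes5, which encode repressors. In the adult hippocampus both pathways act in the stem cell niche of the dentate gyrus, and Wnt ligands are also known from synapses.

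Every array had a trimmed mean signal of 500, the value to which the deposited signals had been scaled. The brightest Glud1 probeset gave 5115.6, 5595.7 and 5560.8 in the Tg mice and 6383.3, 5647.3 and 5998.2 in the wt mice. Its difference did not pass the test across all probesets (adjusted p = 0.593 in limma), and whether its probes lie in the transgene's transcript is not given, so it is no check of the labels. Tg and wt below name the arrays as they are labelled. Markers of neurons split evenly, with 4 of 8 lower and 4 higher in Tg. All 12 dentate granule cell markers were brighter in Tg on average, and all 10 markers of GABAergic interneurons and 10 of 12 of the subiculum and neighbouring cortex were dimmer. The arrays of wt replicates 1 and 2 stood apart at the 3' probeset of an 18S ribosomal RNA control, at 13960.1 and 10375.2. The Tg arrays had 975.5 to 3312.8 there and wt array 3 had 2286.5. At the 5' probeset of this control only wt array 1 stood apart, at 7479.8. There wt array 2 had 3242.4, below the 3385.1 of Tg array 3. The 3'/5' signal ratio of Actb, a measure of RNA integrity, was 1.64 to 1.69 in Tg and 1.70 to 1.95 in wt.

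No member passed the test. Of the 54 genes, 40 were bright enough to be tested, having a mean signal of at least 54.7, the limit that left out the dimmest 31% of probesets. The test compared log2(signal + 16) between 3 Tg and 3 wt arrays over 31075 probesets with limma, and a difference was called at a Benjamini-Hochberg adjusted p under 0.05. It called 0 of the 40 members and 0 of all probesets (0%). Adjusted p-values in limma ranged from 0.209 to 0.999 among members, and the lowest of all probesets was 0.135. At an unadjusted p under 0.05, 2 members were lower in Tg, Hes5 and Wnt4, and 0 were higher. Over all probesets those shares were 3.81% and 6%, so the members' 2 of 40 (5%) was near the background. A second variance model, Cyber-T, called 0 members and 66 probesets in all (0.212%), and put the same 2 members under an unadjusted p of 0.05, against 10.3% of all probesets. A further count took the study's fold size of at least 1.3 and an unadjusted p of at most 0.05 in limma. Hes5 and Wnt4 were again the 2 members lower in Tg (5%), against 2.06% of all probesets. Members higher in Tg numbered 0, against 4.98% of all. The study also set a limit on the false discovery rate, on signals processed in another way (RMA), and listed probesets in both directions. Its lists and the 0 calls in limma thus rest on unlike values and tests.

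The direction of the differences was uneven. The log2 fold change, Tg minus wt, was negative for 28 of the 40 members (70%), while 46.7% of all tested probesets had a negative value. It was positive for 12 members (30%) and for 53.3% of all probesets. The members' median was -0.12 and that of all probesets 0.020. With arrays centred on their median, 30 of 40 members and 56.9% of all probesets were negative. With quantile normalisation the figures were 31 of 40 and 51.2%. Single arrays moved the median by more than 1.5 times: it was -0.056 without Tg array 3, -0.077 without wt array 1 and -0.047 without wt array 3. Averaged over the 40 members, the level of an array relative to the mean of all 6 was -0.16, 0.016 and -0.076 on the Tg arrays and 0.043, 0.033 and 0.15 on the wt arrays on the log2 scale. All Tg arrays thus had a lower average than every wt array, with Tg array 2 and wt array 2 only a little apart.

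**Figure D1:**
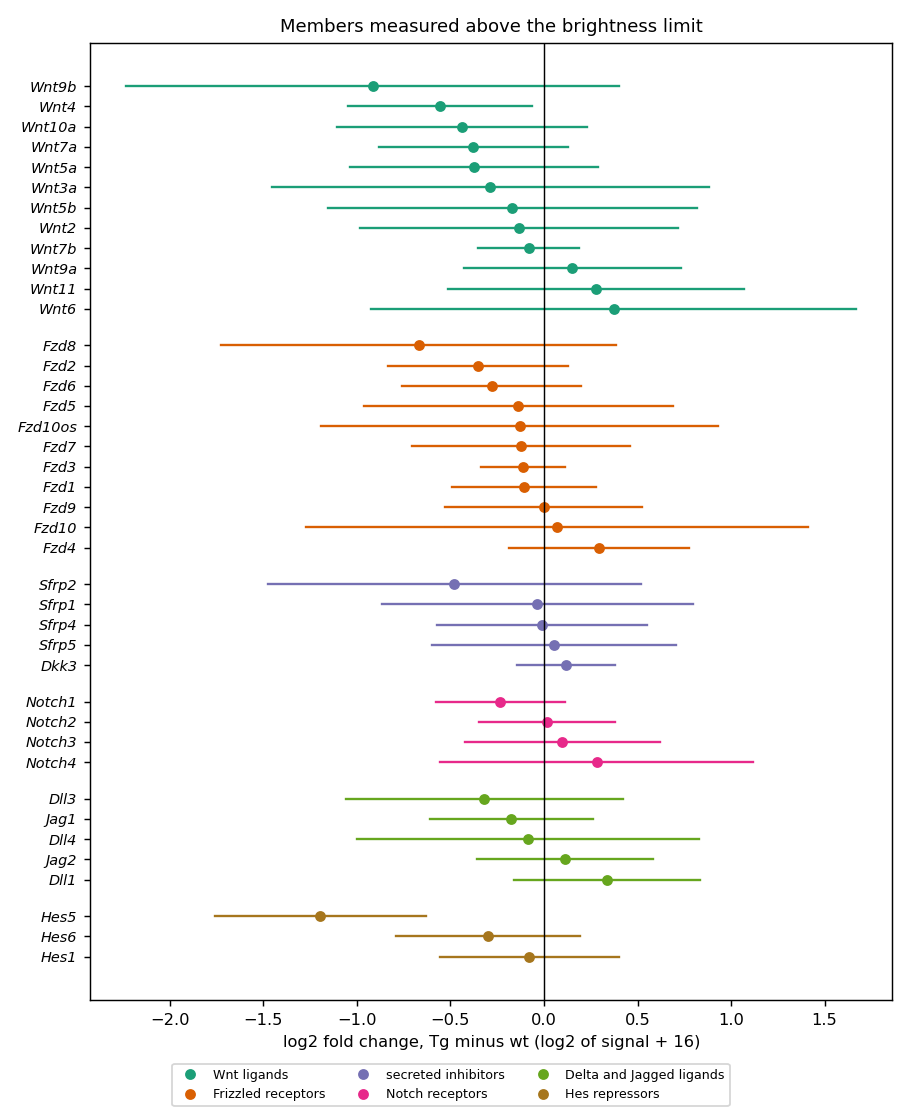
Log2 fold change, Tg minus wt, on the log2(signal + 16) scale for the 40 members above the brightness limit, grouped by family; points are estimates from limma on 3 Tg and 3 wt arrays and lines are 95% intervals. Only the intervals of Hes5 and Wnt4 stay clear of 0, and 28 of the 40 points lie to the left of it.

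**Figure D2:**
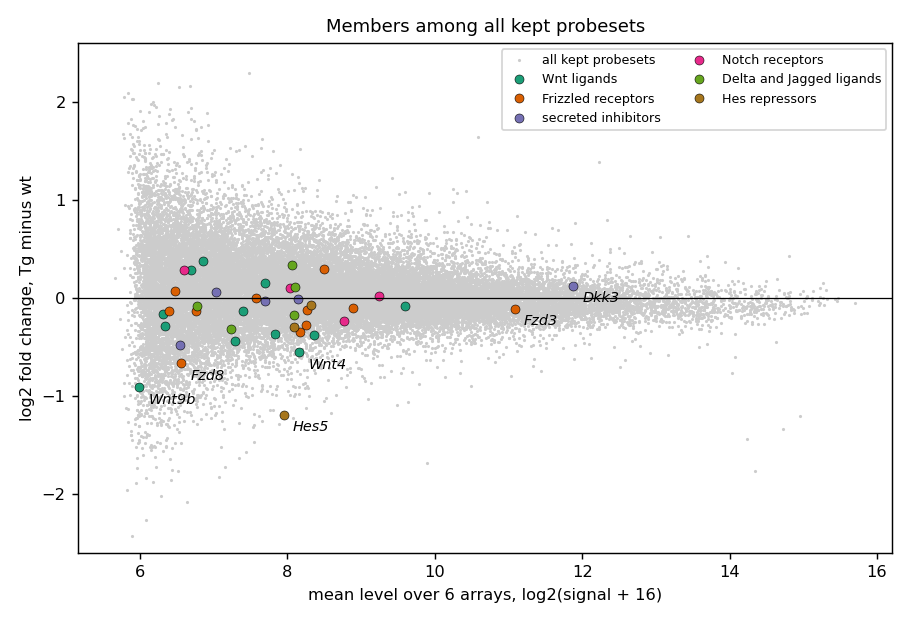
Each point is a tested probeset with its log2 fold change, Tg minus wt, against its mean log2(signal + 16) over the 6 arrays; the 40 members are coloured by family and the 31075 tested probesets are grey. Most members lie well inside the cloud of all probesets, and Hes5, at -1.20 the lowest of them, lies at its lower edge.

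The Hes genes encode basic helix-loop-helix repressors that keep progenitor cells from differentiating, and Hes1 and Hes5 are the main targets of Notch in the brain. Of the 6 members, 3 were tested, and all 3 had negative log2 fold changes, with a median of -0.30. Hes5, which marks neural stem cells and is also found in astrocytes, stood furthest from 0 of all 40 members. Its brightest probeset gave 157.6, 178.8 and 112.5 in the Tg mice and 379.7, 256.1 and 468.8 in the wt mice. Every Tg array was below every wt array, which was so for 2 of the 40 members (5%) and for 6.68% of all tested probesets. The opposite order, all Tg arrays above all wt arrays, was found for 0 members and 8.6% of all. The means were 150 ± 33.9 in Tg and 368 ± 107 in wt (SD, n = 3 each). The log2 fold change was -1.20 (SE 0.259, 95% interval -1.76 to -0.63). The unadjusted p in limma was 5.73e-04, in place 85 of the 31075 probesets, and the adjusted p of 0.209 missed the threshold. With Cyber-T the adjusted p was 0.0549, so it was missed there too. Without wt arrays 1 and 2, which stood apart at the 3' probeset of the 18S control, the log2 fold change was -1.57. Only 1 wt array was left there, and the fit assumed it to vary like the Tg arrays.

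This Hes5 probeset is of the kind that may also bind other transcripts (suffix x). A second Hes5 probeset gave 110, 124 and 163 in the Tg mice and 200, 214 and 202 in the wt mice. The groups did not overlap there either, and the log2 fold change was -0.59 (SE 0.245, adjusted p = 0.463 in limma). The direction was thus the same at both probesets and the mean of wt was 2.29-fold that of Tg at the first and 1.51-fold at the second on the log2(signal + 16) scale. Both Hes5 probesets, and the brightest ones of Wnt4 and Wnt7a, are also in the study's own list of genes lower in Tg. That list was chosen on these same arrays, so it is not independent evidence of their direction.

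Hes6, which favours neuronal differentiation by opposing Hes1, had 209.5, 261.4 and 223.5 in the Tg mice and 209.9, 343.5 and 327.9 in the wt mice. Its groups overlapped, and the log2 fold change was -0.30 (SE 0.225, adjusted p = 0.696 in limma). Hes1, the Notch target that oscillates in progenitors, had means of 301 ± 83.5 in Tg and 314 ± 52.9 in wt (SD, n = 3 each) and a log2 fold change of -0.078. Hes2, Hes3 and Hes7 were under the brightness limit, with mean signals of at most 38.0.

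The promoter of Hes5 is shown because RBPJ, the DNA-binding partner of cleaved Notch, is known to act on it. The sequence holds the 250 bases before the RefSeq start of Hes5 (GRCm38.p6, chr4:154960673-154960922, plus strand), with matches to TGGGAA, the core of RBPJ sites, in capitals. Below it is the same stretch for Wnt4 (chr4:137277385-137277634, plus strand), the other member with an unadjusted p under 0.05.
Hes5: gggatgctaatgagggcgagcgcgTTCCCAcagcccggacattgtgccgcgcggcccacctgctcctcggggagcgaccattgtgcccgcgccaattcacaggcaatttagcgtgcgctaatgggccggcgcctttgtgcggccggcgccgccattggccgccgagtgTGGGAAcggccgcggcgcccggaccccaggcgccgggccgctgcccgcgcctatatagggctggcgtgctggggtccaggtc
Wnt4: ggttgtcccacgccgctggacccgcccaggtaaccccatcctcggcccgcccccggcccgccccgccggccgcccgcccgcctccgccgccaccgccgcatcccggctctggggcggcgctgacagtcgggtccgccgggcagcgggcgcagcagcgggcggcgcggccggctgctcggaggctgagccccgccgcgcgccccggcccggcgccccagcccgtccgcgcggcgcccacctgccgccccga
The Hes5 stretch held 2 matches, of which 1 starts 226 bases before the start on the opposite strand, where it reads TTCCCA as printed, and 1 starts 82 bases before it on the printed strand. RefSeq gave 43 promoters for 38 of the 54 members, each 300 bases long with 250 before and 50 after the start. Searched on both strands, TGGGAA was in 5 of these 43 (11.6%) and in 25.6% of all 32851 promoters. At least 2 matches were found in 3.79% of all promoters and in 1 of the 43 of members, that of Hes5. Hes1, the other Notch target named above, had no promoter among the 43 and was not searched. The Wnt4 stretch, 85.2% G and C, held none of the motifs searched, and the Hes5 stretch was 71.6% G and C, against a median of 52.4% over all promoters. CTTTGA, the core of TCF and LEF sites, was in 5 of the 43 promoters (11.6%) and 16% of all. The E box CACGTG was in 2 (4.65%) and 7.15% of all, and the N box CACNAG, which HES proteins bind, in 16 (37.2%) and 42.5% of all. A match describes these letters only and is no measure of binding.

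All 4 Notch receptors were tested. Notch1, the receptor that maintains adult neural stem cells, gave 378.0, 448.4 and 343.5 in the Tg mice and 452.8, 464.8 and 457.6 in the wt mice. Every Tg array was below every wt array, although Tg array 2 came close to the lowest wt array. The means were 390 ± 53.5 in Tg and 458 ± 6.04 in wt (SD, n = 3 each), and the log2 fold change was -0.23 (SE 0.158, adjusted p = 0.663 in limma). At a second Notch1 probeset the values were 300, 318 and 148 in the Tg mice and 368, 369 and 300 in the wt mice. There the groups overlapped, and the log2 fold change was -0.48 (SE 0.261, adjusted p = 0.589 in limma).

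Notch4, a receptor of endothelial cells, had 105.7, 117.4 and 58.6 in the Tg mice and 66.8, 78.8 and 70.0 in the wt mice. Tg arrays 1 and 2 were above all wt arrays and Tg array 3 below them, with a log2 fold change of 0.28 (SE 0.384), which ranged from 0.12 to 0.54 without 1 array. Notch2 and Notch3 were closer to 0. Notch2 had means of 592 ± 33.8 in Tg and 594 ± 129 in wt and Notch3, a receptor of mural cells, 256 ± 31.7 in Tg and 244 ± 79.8 in wt (SD, n = 3 each). Their log2 fold changes were 0.016 and 0.099, and dimmer second probesets had the opposite sign, at -0.18 (SE 0.418) for Notch2 and -0.33 (SE 0.434) for Notch3.

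The 5 ligands of Notch were all tested, and 3 had negative and 2 positive log2 fold changes, with a median of -0.087. Dll1, an activating ligand, had 231.7, 264.0 and 377.0 in the Tg mice and 257.7, 185.9 and 228.3 in the wt mice. Tg arrays 2 and 3 were above all wt arrays and Tg array 1 was among them, and the log2 fold change was 0.34 (SE 0.228, adjusted p = 0.660 in limma). Dll3, a divergent Delta that acts within the cell that makes it, had 107.5, 82.9 and 182.5 in the Tg mice and 218.9, 115.7 and 135.9 in the wt mice. The groups overlapped, and the log2 fold change was -0.32 (SE 0.341). Without 1 array, Dll1 ranged from 0.15 to 0.48 and Dll3 from -0.60 to -0.074. Jag1, the ligand of the stem cell niche, was at -0.17 (SE 0.20) at its brightest probeset and at 0.66 (SE 0.644) at a dim second one. Jag2 was at 0.11 (SE 0.216) and, at its second probeset, at -0.33 (SE 0.228), so neither Jagged gene had 1 direction. Dll4, the endothelial ligand, was at -0.087 (SE 0.420) on the same scale.

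**Figure D3:**
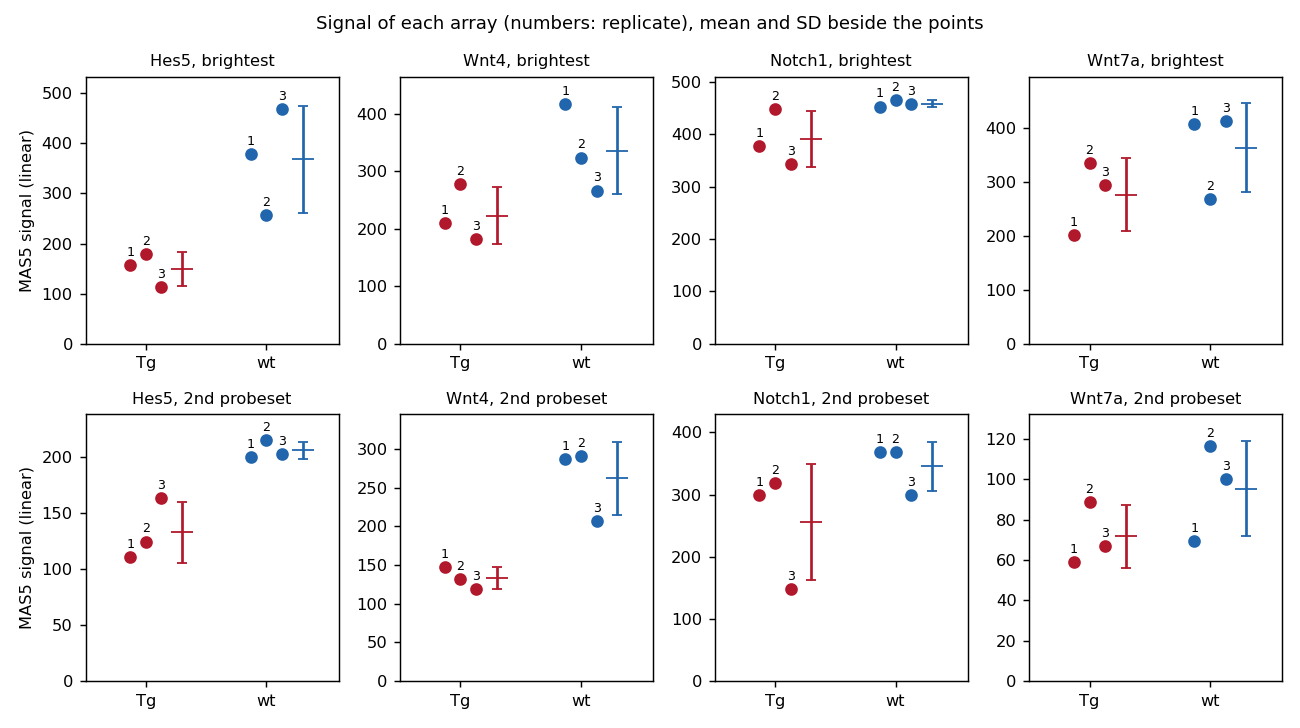
Signal on each array, on a linear axis from 0, for Hes5, Wnt4, Notch1 and Wnt7a, at the brightest probeset above and a second probeset below, with Tg on the left of each panel; points are arrays with their replicate number, and the bars beside them are mean and SD of 3. The Tg values lie below all wt values at both Hes5 probesets, the second of Wnt4 and the brightest of Notch1, and overlap with them in the other panels.

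Other genes of the Notch pathway were read from a list of 43, covering further ligands, the cleaving enzymes, RBPJ and its partners, of which 37 were tested. Log2 fold changes were negative for 23 and positive for 14, with a median of -0.078. None passed the test. At an unadjusted p under 0.05, 3 of the 37 were lower in Tg, Dner, Dtx1 and Tle4, and 1 was higher, Tle1. Over all tested probesets these shares were 3.81% and 6%. All Tg arrays were below all wt arrays for 4 of the 37 and above them for 1, against 6.68% and 8.6% of all. Dner, a neuronal transmembrane protein that can bind Notch, gave 4047.5, 4022.4 and 4013.9 in the Tg mice and 4621.3, 4971.7 and 5289.5 in the wt mice. The groups were clearly apart, and the log2 fold change was -0.30 (SE 0.0820, adjusted p = 0.255 in limma). Dtx1, a ubiquitin ligase that modulates Notch, had 1458.5, 1409.3 and 1274.0 in the Tg mice and 1999.2, 1708.3 and 1515.2 in the wt mice, and the log2 fold change was -0.32 (SE 0.120, adjusted p = 0.408 in limma). Tle1 and Tle4 encode Groucho co-repressors that HES proteins recruit. Tle1 was at 0.25 (SE 0.106), with every Tg array above every wt array, and Tle4 at -0.31 (SE 0.128), with overlap, so the co-repressors differed in sign. Rbpj itself had 740.8, 664.2 and 639.2 in the Tg mice and 749.7, 914.3 and 808.3 in the wt mice, all Tg arrays being lower, and the log2 fold change was -0.27 (SE 0.132, adjusted p = 0.542 in limma). Psen2, a subunit of the gamma-secretase that cleaves Notch, was also lower on every Tg array, at -0.33 (SE 0.164). The other subunits measured did not share this direction throughout, with Aph1a at 0.26, Aph1b at 0.078, Ncstn at -0.024 and Psenen at -0.089, all with overlap. Numbl, an inhibitor of Notch, was at 0.32 (SE 0.183), and its relative Numb, another inhibitor, at -0.20 (SE 0.142), both with overlap.

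Of the 19 Wnt ligands, 12 were tested, and 9 had negative and 3 positive log2 fold changes. Their median was -0.23, and they ran from -0.91 for Wnt9b to 0.37 for Wnt6, both dim and widely spread. Wnt4, best known from the development of the kidney and the female reproductive tract, had 209.5, 277.6 and 182.0 in the Tg mice and 417.7, 324.2 and 266.7 in the wt mice. Tg array 2 lay above wt array 3, so the groups overlapped, while the other Tg arrays were below all wt arrays. The means were 223 ± 49.2 in Tg and 336 ± 76.2 in wt (SD, n = 3 each). The log2 fold change was -0.56 (SE 0.226, 95% interval -1.05 to -0.064), with an unadjusted p of 0.0299 and an adjusted p of 0.457 in limma. At a second Wnt4 probeset the values were 148, 132 and 119 in the Tg mice and 288, 292 and 208 in the wt mice. These did not overlap, and the log2 fold change was -0.89 (SE 0.235, adjusted p = 0.245 in limma). The unadjusted p of the brightest probeset passed 0.05 neither without Tg array 1 or 3 nor without wt array 1 or 2. Without both of these wt arrays the log2 fold change was -0.26, with an adjusted p of 0.971 in limma.

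Wnt7a, a ligand known to promote synapses and the self-renewal of neural stem cells, had 201.9, 335.3 and 294.3 in the Tg mice and 408.9, 268.4 and 414.3 in the wt mice. The groups overlapped because wt array 2 was below Tg arrays 2 and 3. The log2 fold change was -0.38 (SE 0.233, adjusted p = 0.632 in limma), or -0.18 without Tg array 1, and -0.34 (SE 0.375) at the second probeset. Wnt7b, its close relative, had means of 737 ± 55.2 in Tg and 780 ± 39.3 in wt (SD, n = 3 each), with a log2 fold change of -0.082 (SE 0.124). That interval, -0.35 to 0.19, is the narrowest of the tested ligands. Wnt5a, a ligand of the polarity and calcium routes, had 3 tested probesets, 2 with negative values and 1 with a positive value. Its brightest gave 181.3, 142.5 and 239.6 in the Tg mice and 241.0, 155.2 and 379.7 in the wt mice, at -0.37 (SE 0.306). The next was at -0.27 (SE 0.279), with overlap. The dimmest tested one gave 110, 115 and 95.1 in the Tg mice and 69.3, 45.9 and 67.1 in the wt mice, with no overlap, and the log2 fold change was 0.69 (SE 0.365, adjusted p = 0.576 in limma). Wnt3a, the hippocampal ligand that activates beta-catenin in neural stem cells, had means of 69.3 ± 57.1 in Tg and 75.5 ± 26.3 in wt (SD, n = 3 each). The other tested ligands, Wnt10a, Wnt5b, Wnt2, Wnt9a and Wnt11, had log2 fold changes between -0.44 and 0.28, all with intervals that held 0. Wnt1, Wnt2b, Wnt3, Wnt8a, Wnt8b, Wnt10b and Wnt16 were under the brightness limit, Wnt8b just so at a mean of 51.7, and Wnt9b just above it at 56.6.

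The name rule put 11 genes among the Frizzled receptors, of which Fzd10os, a transcript from the opposite strand at Fzd10, is no receptor. All 11 were tested. Log2 fold changes were negative for 9 and positive for 2, with a median of -0.12, and no unadjusted p was under 0.05. Fzd2 had 171.3, 264.3 and 299.3 in the Tg mice and 297.4, 303.4 and 327.7 in the wt mice. Tg array 3 reached just above wt array 1, and the log2 fold change was -0.35 (SE 0.221, adjusted p = 0.635 in limma), or -0.13 without Tg array 1. Its 3 probesets all had negative values, between -0.39 and -0.14. Fzd8, a dim probeset, had 23.9, 60.9 and 120.0 in the Tg mice and 92.6, 149.3 and 77.6 in the wt mice, with overlap and a log2 fold change of -0.67 (SE 0.485), which ranged from -1.10 to -0.22 without 1 array. Fzd3, which guides growing axons, was measured with the smallest error of the members. It had means of 2089 ± 242 in Tg and 2246 ± 46.8 in wt (SD, n = 3 each) and a log2 fold change of -0.11 (SE 0.103, 95% interval -0.33 to 0.11). Its 5 probesets ran from -0.43 to 0.51. Fzd4, the receptor of norrin in brain vessels, was at 0.29 (SE 0.220), with means of 388 ± 86.5 in Tg and 316 ± 81.9 in wt (SD, n = 3 each). Fzd9, known from hippocampal precursors, was at -0.00086 (SE 0.242).

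Among the 9 secreted inhibitors, 5 were tested, with 3 negative and 2 positive log2 fold changes and a median of -0.011. Dkk3, a divergent Dickkopf protein made by neurons, had 4057.8, 3204.9 and 4559.1 in the Tg mice and 3461.4, 3461.2 and 3874.4 in the wt mice. Tg arrays 1 and 3 were above all wt arrays and Tg array 2 below them, and the log2 fold change was 0.12 (SE 0.120, adjusted p = 0.786 in limma). It was 0.26 without Tg array 2 and 0.0050 without Tg array 3, and a second probeset of similar error was at -0.014 (SE 0.0905). Sfrp2 had 66.6, 76.4 and 48.2 in the Tg mice and 192.9, 65.2 and 62.1 in the wt mice. Only wt array 1 was high, and the log2 fold change was -0.48 (SE 0.459) with it and -0.015 without it. Sfrp1 had 100, 408.9 and 159.8 in the Tg mice and 185.9, 189.3 and 209.2 in the wt mice, with a log2 fold change of -0.036 (SE 0.382). Tg array 2 was also the highest Tg array at 3 of the 4 other Sfrp1 probesets. These gave 43, 163.2 and 96.6, then 9.2, 120.5 and 40.2, and, under the brightness limit, 16.2, 101.5 and 28.7 in the Tg mice, against 64.4, 100.3 and 183.7, then 66.2, 128 and 76.4, and 11.5, 49.3 and 44.8 in the wt mice. The remaining one, of the kind that may bind other transcripts, gave 261, 76.8 and 26.6 in the Tg mice and 128, 132 and 71.8 in the wt mice. Only the brightest and the dimmest of the 5 had Tg array 2 above every wt array. Sfrp4 and Sfrp5 were at -0.011 and 0.055. Dkk1, Dkk2, Dkk4 and Dkkl1 were under the brightness limit. Of these, Dkk2 had 6.8, 2.1 and 3.6 in the Tg mice and 21.1, 49.8 and 28.8 in the wt mice, and Dkk4 had 4.6, 2.7 and 4.2 in the Tg mice and 17.0, 24.2 and 6.4 in the wt mice. Both were lower on every Tg array, in a range of signal where no value of theirs reached the limit of 54.7. The 6.68% given for this order covers tested probesets only, and the share under the limit was not counted. Dkk1 had a higher mean in Tg at its brightest probeset, 61.9 against 30.5 in wt, with overlap. A second Dkk1 probeset was lower on every Tg array, with means of 8.93 in Tg and 36.8 in wt. Dkkl1 overlapped, with means of 19.5 in Tg and 21 in wt.

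Other genes of the Wnt pathway, from co-receptors and R-spondins to beta-catenin partners and targets, numbered 54 on the list, and 45 were tested. Their log2 fold changes were negative for 20 and positive for 25, with a median of 0.0086, close to that of all probesets. None passed the test. At an unadjusted p under 0.05, 2 of the 45 were lower in Tg, Rspo2 and Rspo3, and 0 were higher. Over all tested probesets these shares were 3.81% and 6%. R-spondins are secreted proteins that amplify Wnt signals by sparing Frizzled receptors from breakdown. Rspo2 had 753.8, 839.6 and 1136.7 in the Tg mice and 1052.8, 1332.6 and 1260.3 in the wt mice, with overlap, and the log2 fold change was -0.43 (SE 0.157, adjusted p = 0.406 in limma). Rspo3 had 265.2, 298.5 and 252.8 in the Tg mice and 296.2, 476.1 and 465.5 in the wt mice, with overlap, and the log2 fold change was -0.55 (SE 0.206, adjusted p = 0.420 in limma). Rspo2 is also on the marker list of the subiculum and neighbouring cortex. Nkd1 and Nkd2, feedback inhibitors of Wnt signalling, had the smallest p among the genes with positive values, at 0.58 (SE 0.304) and 0.51 (SE 0.295). Axin2, a general target of beta-catenin, had 439.6, 375.4 and 552.3 in the Tg mice and 497.0, 382.7 and 477.3 in the wt mice, with a log2 fold change of 0.0021 (SE 0.180). Of the 45 tested genes, Gsk3a was lower on every Tg array, at -0.17, and Axin1 was higher on every Tg array, at 0.19. Over all tested probesets, 6.68% had the first order and 8.6% the second.

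Several members were measured by more than 1 probeset. Of the 102 probesets of the 54 genes, 67 were tested, and 4 of these (5.97%) had an unadjusted p under 0.05, against 9.8% of all. They were the probesets of Hes5 and Wnt4, all lower in Tg. Of the 67, 5 had all Tg arrays below all wt arrays and 1 had them above, against 6.68% and 8.6% of all tested probesets. Among 19 members with at least 2 tested probesets, the sign was shared in 10, Hes5, Wnt4, Wnt7a and Notch1 among them, and mixed in 9.

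The error of the log2 fold change differed with brightness. For the 22 members with a mean signal of at least 200, the median SE of the log2 fold change was 0.221 (0.103 to 0.382), and the 95% interval lay within -1 to 1 for 19 of them. For the 18 dimmer ones the median SE was 0.405 (0.242 to 0.616), and 5 had such an interval. For the other 13 dim members the interval did not exclude a difference of 1 on the log2 scale in 1 direction or both.

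Markers of other cells moved beside these genes. Of 10 astrocyte markers, 9 had negative log2 fold changes, with a median of -0.15, and 5 were lower on every Tg array. Over all tested probesets these shares were 46.7% and 6.68%. Their average level relative to all arrays was -0.018, -0.073 and -0.10 on the Tg arrays and 0.032, 0.088 and 0.074 on the wt arrays. Gfap, the lowest of the 10, was at -0.30 and Aqp4 at -0.14, while Slc1a3 was the 1 with a positive value, 0.097. Among markers of the subiculum and neighbouring cortex, the median was -0.38, and the levels were -0.41, -0.10 and -0.093 on the Tg arrays and 0.20, 0.21 and 0.19 on the wt arrays. Interneuron markers had a median of -0.35 and dentate granule cell markers one of 0.29. The granule cell levels were 0.11, 0.31 and 0.22 on the Tg arrays and -0.33, -0.33 and 0.026 on the wt arrays. All 9 choroid plexus markers had negative log2 fold changes, with a median of -0.77. Their levels varied most between arrays, at -0.40, 1.57 and -2.22 on the Tg arrays and 0.45, 0.40 and 0.20 on the wt arrays. Tg array 2, the highest, was also the one with the high Sfrp1 value. Sfrp1 had 100 on Tg array 1 and 159.8 on Tg array 3, where the marker levels ran the other way. A link between Sfrp1 and these markers was not tested. Meningeal fibroblast markers had a median of -0.43, with 8 of 10 negative, and levels of -0.30, -0.59 and 0.14 on the Tg arrays and -0.66, 0.74 and 0.68 on the wt arrays. Endothelial and mural markers, a list that holds Notch3, had a median of -0.12, with 8 of 10 negative. The part of these lists in the values of the members was not tested.

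**Figure D4:**
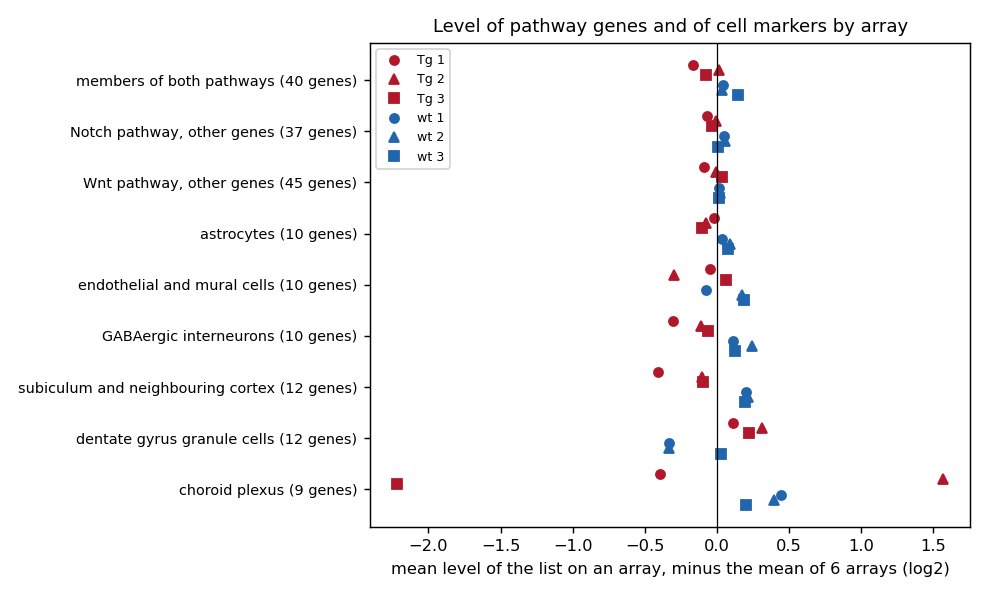
Mean level of each gene list on each of the 6 arrays, as log2(signal + 16) minus the mean over all arrays, with Tg arrays in red above wt arrays in blue. The Tg arrays lie below the wt arrays for the members, the other Notch pathway genes, the astrocytes, the interneurons and the subiculum list. They lie above the wt arrays for dentate granule cells, and far apart from each other for the choroid plexus. The groups overlap for the other Wnt pathway genes and for endothelial and mural cells.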

How the data were processed

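RNA from the hippocampus of 3 Tg and 3 wt mice was hybridised to 1 array each. The values are the deposited MAS5 signals, linear intensity values that the authors scaled to a common trimmed mean; the study's own gene lists were derived from RMA values, which are not used here. Detection calls were not used. Probesets were named through GEO's platform annotation, and those with several genes were left out of the members. From 45101 probesets, 64 controls and then the dimmest 31% by mean signal were left out. Signals were compared as log2(signal + 16) with limma 3.58.1 (R 4.3.3), group means and an intensity trend, with Benjamini-Hochberg adjustment over all 31075 probesets. Fold changes are on that scale, which understates those of dim genes. For Cyber-T, the window held 101 probesets and the prior weight was 10. SAM, which relabels arrays, was not run. Scripts were tested on simulated data. The precision is limited by 3 arrays a group.

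Members named with the value of each array were those with an unadjusted p under 0.05, those whose groups did not overlap, those on the study's lists, and the 2 of smallest p in each family. Of other pathway genes, the 2 of smallest p on each side were named. Only those lower in Tg were given with the value of each array. Wnt5a, Sfrp1, Rbpj, Axin2, Dkk2 and Dkk4 were given in full, and Gsk3a, Axin1, Tle4, Numb and the gamma-secretase subunits were named, after their values were seen. The members and all lists were chosen with earlier results of these data known. Promoters came from RefSeq (GRCm38.p6). Alternatives were other constants, normalisations, filters, variance models and probeset rules, the replicate number as a block, and leaving out arrays. Added after seeing the data were a filter on the mean log2 level, the other probesets of Hes5 and Wnt4, and the removal of wt replicates 1 and 2 together.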

Additional observations from a re-analysis of the deposited data

How the results depend on the processing

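No member was called under any of 18 alternatives. Over all tested probesets, the 0 calls became 66 with Cyber-T and 1 with the replicate number as a block, and 0 to 6 when 1 array was left out, the 6 without Tg replicate 2. Replicate numbers did not pair the samples (correlations of deviations of -0.017, 0.0077 and 0.033), and the block called 0 members. The members' median log2 fold change of -0.12 was -0.19 with quantile normalisation, -0.18 with arrays centred on the median, -0.17 without wt replicates 1 and 2, and -0.17 to -0.047 when 1 array was left out. Positive values numbered 7 of 27 members among the brightest 50% of probesets, and 13 to 17 when 1 array was left out, against 12 of 40. At an unadjusted p under 0.05, leaving out 1 array gave 1 to 3 members lower in Tg and 0 to 1 higher. Hes5 was among the lower ones in each case. It stood alone without Tg replicate 1 or 3, Hes6 joined it without wt replicate 1, and Wnt5a and Wnt7a without wt replicate 2. The member higher in Tg was Dkk3, without Tg replicate 2. Without the brightness filter Dkk2 joined Hes5 and Wnt4.

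Hes5 kept an unadjusted p under 0.05 under every alternative, with a log2 fold change of -1.57 to -0.59 and an adjusted p of 0.0549 to 0.615. Wnt4 ranged from -0.89 to -0.26, with an adjusted p of 0.245 to 0.971. Sfrp2 was at -0.015 without wt replicate 1, which held its high wt value. It changed sign, to 0.014, only without wt replicates 1 and 2. The cause of these changes was not tested. The other 11 named members kept their sign under the alternatives run for each. A second probeset alone was run as an alternative only for Hes5 and Wnt4, and that of Dkk3 had the opposite sign, at -0.014.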
